A study of Homo sapiens with 12 samples.

Results

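The mitochondrial ribosomal protein genes were described as 75 genes measured in the human osteosarcoma line U2OS, whose p53 is wild type according to the labels. They were all genes whose symbol in the platform annotation was MRPL or MRPS followed by a number, with A, B or C endings kept and pseudogenes left out. The rule matched 77 symbols, of which 48 MRPL and 27 MRPS genes had a probe set paired with that gene alone. MRPL53 and MRPS24 were measured only by probe sets shared with another gene. Each member was represented by its probe set with the highest mean over the 12 arrays. All 75 passed the filter on low signal and so belonged to the 13673 genes tested.

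Cells were exposed for 24 h to 0.6 µg/ml doxorubicin, an anthracycline that damages DNA, or to 10 µM nutlin-3, a small molecule that blocks the binding of MDM2 to p53. Untreated cells were the control for doxorubicin, and cells in 0.1% DMSO, a solvent, were the control for nutlin-3. Each of the 4 groups had 3 arrays, all from the same line, and values are the MAS5 signal intensities of Affymetrix U133 Plus 2.0 arrays. Nothing in the labels tells whether replicates came from separate cultures, and p-values therefore cover only the variation among these samples, which may be technical.

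The mitochondrial ribosome makes the few proteins that mitochondrial DNA encodes, all of them subunits of the oxidative phosphorylation complexes. Its ribosomal RNAs come from mitochondrial DNA, while every one of its proteins is encoded in the nucleus, made in the cytosol and imported. MRPL genes encode proteins of the large subunit, which joins amino acids, and MRPS genes those of the small subunit, which reads the messenger RNA. MRPS30 and MRPS18A are exceptions by name, since their proteins sit in the large subunit. Some members descend from bacterial ribosomal proteins and others are found only in mitochondria.

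The members lay on 21 chromosomes, with a median RefSeq gene length of 8.667 kb. Their mean signals over the 12 arrays ran between 316 for MRPL2, a core protein of the large subunit, and 9484 for MRPL33, a small large-subunit protein. Signals of different probe sets depend on the probes, so these 2 values do not rank the genes by expression.

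Promoters of 7 members are shown: those of the 3 genes that rose most with doxorubicin (MRPS6, MRPL49 and MRPL36) and of the 3 that fell most (MRPS34, MRPL24 and MRPS27), and that of MRPS12, which shares its start region with a neighbour that moved the other way. Each is the stretch of 250 bases before to 50 bases after the RefSeq start (GRCh38.p14), written 5′ to 3′ on the gene's own strand. Capitals mark matches, on either strand, to 4 short motifs: CCGGAAG for the ETS core, GCATGCG for the NRF1 core, AAGATGG for the YY1 core and CACGTG for the E-box. The end of the ETS core equals the start of the YY1 core, so a stretch can match both. The promoters lie at chr21:34073328-34073627 on the + strand for MRPS6, chr11:65121933-65122232 on the + strand for MRPL49 and at chr5:1799788-1800087 on the − strand for MRPL36. Those of MRPS34, MRPL24 and MRPS27 lie at chr16:1773085-1773384, chr1:156741039-156741338 and chr5:72320191-72320490, all on the − strand, and that of MRPS12 lies at chr19:38930694-38930993 on the + strand.
MRPS6: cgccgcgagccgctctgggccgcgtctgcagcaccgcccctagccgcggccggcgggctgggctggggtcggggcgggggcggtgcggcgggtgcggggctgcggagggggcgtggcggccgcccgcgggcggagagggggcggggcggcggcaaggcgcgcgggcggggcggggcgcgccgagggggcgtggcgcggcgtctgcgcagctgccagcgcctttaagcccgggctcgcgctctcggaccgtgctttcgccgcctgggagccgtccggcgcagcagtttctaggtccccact
MRPL49: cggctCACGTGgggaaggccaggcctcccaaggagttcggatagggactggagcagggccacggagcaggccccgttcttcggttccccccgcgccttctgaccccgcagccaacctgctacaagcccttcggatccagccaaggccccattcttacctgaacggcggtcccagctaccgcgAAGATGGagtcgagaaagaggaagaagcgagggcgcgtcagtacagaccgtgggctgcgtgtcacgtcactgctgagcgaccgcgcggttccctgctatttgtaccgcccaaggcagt
MRPL36: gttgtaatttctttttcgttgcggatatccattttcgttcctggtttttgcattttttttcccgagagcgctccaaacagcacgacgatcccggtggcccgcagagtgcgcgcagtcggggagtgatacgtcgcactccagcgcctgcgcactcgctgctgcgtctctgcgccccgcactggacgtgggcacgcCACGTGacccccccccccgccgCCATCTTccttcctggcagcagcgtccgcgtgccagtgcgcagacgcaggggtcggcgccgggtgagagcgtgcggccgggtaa
MRPS34: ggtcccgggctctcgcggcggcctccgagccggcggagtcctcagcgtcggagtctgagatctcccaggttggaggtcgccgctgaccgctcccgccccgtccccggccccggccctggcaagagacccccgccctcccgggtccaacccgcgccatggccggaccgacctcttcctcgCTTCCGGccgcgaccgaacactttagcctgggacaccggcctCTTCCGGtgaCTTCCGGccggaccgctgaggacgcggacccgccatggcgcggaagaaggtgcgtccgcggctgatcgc
MRPL24: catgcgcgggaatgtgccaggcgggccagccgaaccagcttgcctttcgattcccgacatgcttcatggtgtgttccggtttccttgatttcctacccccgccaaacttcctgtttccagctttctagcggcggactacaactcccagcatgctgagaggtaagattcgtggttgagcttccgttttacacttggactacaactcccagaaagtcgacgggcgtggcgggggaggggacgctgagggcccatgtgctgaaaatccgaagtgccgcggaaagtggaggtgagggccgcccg
MRPS27: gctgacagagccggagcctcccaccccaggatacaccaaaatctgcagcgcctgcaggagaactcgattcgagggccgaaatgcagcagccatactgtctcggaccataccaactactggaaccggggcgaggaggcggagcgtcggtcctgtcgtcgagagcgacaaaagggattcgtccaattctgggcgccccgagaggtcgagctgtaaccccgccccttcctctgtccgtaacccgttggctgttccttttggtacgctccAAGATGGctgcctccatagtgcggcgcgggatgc
MRPS12: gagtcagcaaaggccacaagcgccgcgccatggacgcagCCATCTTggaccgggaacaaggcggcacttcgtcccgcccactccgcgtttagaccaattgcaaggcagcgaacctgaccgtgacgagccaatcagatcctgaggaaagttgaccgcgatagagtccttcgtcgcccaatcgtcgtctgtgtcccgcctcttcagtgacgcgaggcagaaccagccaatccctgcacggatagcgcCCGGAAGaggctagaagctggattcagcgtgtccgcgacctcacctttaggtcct

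The MRPL49 and MRPL36 promoters each held 1 YY1 core and 1 E-box. The MRPS12 promoter held 1 ETS core and 1 YY1 core, that of MRPS34 held 3 ETS cores, and that of MRPS27 held 1 YY1 core. The MRPS6 and MRPL24 windows held none of the 4 motifs. RefSeq gave a promoter for 67 of the 75 members, and the other members were MRPL2, MRPL10, MRPL13, MRPL15, MRPL21, MRPL23, MRPL35 and MRPS28. The ETS core occurred in 28 of the 67 windows (41.8%), against 18.2% of the 11012 tested genes with a window and 10.7% of all 27305 windows. The YY1 core occurred in 22 of 67 (32.8%), against 7.36% of tested genes and 6.06% of all windows. The NRF1 core was found in 7 members (10.4%, against 6.2% and 4.13%) and the E-box in 6 (8.96%, against 9.91% and 7.43%). A match is a run of letters and not a shown binding site.

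Array medians lay between 79.4 and 113.4, and arrays of 1 group correlated at 0.980 to 0.991 over the genes tested. The 3′ to 5′ signal ratio of the ACTB control probe sets was 3.12 ± 0.577 in doxorubicin-treated cells and 1.53 ± 0.0754 in untreated cells (SD over 3 arrays each). An exact two-sided permutation test gave p = 0.1, the smallest that 3 arrays against 3 allow. The same ratio of the dap spike-in control was 7.67 ± 3.85 in doxorubicin-treated cells and 2.84 ± 0.401 in untreated cells (exact permutation p = 0.1, n = 3 each), and that of GAPDH was 1.07 ± 0.116 and 1.02 ± 0.0356 in these groups (exact permutation p = 0.6). With nutlin-3 the ACTB ratio was 1.31 ± 0.026, against 1.28 ± 0.0281 in DMSO (exact permutation p = 0.2, n = 3 each). Between the controls, the ACTB ratio was 1.28 ± 0.0281 in DMSO and 1.53 ± 0.0754 in untreated cells, and the GAPDH ratio 0.942 ± 0.0102 and 1.02 ± 0.0356 in these groups (exact permutation p = 0.1 for each, n = 3 each). The part of these ratios in the doxorubicin and DMSO results was not tested.

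The labelled line and its treatments were checked by markers. VIM, COL1A1, SPARC and RUNX2, mesenchymal and osteoblast genes, passed the filter, and ALPL and COL1A2 did not. Of these 4 that passed, 1 was called higher and 1 lower with doxorubicin, with log2 changes between -0.75 and 0.26. With nutlin-3, 1 of the 4 was called lower. The p53 target CDKN1A averaged 7678 ± 1114 with doxorubicin against 1361 ± 34.1 in untreated cells, and 7469.9 ± 393 with nutlin-3 against 1507 ± 187 in DMSO (SD, n = 3 each). Of 4 leukocyte markers, 2 passed the filter and 1, LAPTM5, rose with both agents. Their summed signal was 509 to 796 with doxorubicin against 155 to 246 in untreated cells, and 319 to 421 with nutlin-3 against 126 to 191 in DMSO. PTPRC, which marks all leukocytes, and CD14 stayed under the filter. All 5 epithelial markers passed the filter, and 3 of the 5 fell with doxorubicin. The sum of the 5 was 19748 to 24622 with doxorubicin against 27658 to 28877 in untreated cells. With nutlin-3, 2 of them rose and 1 fell, and the sum was 26008 to 27457 with nutlin-3 against 20490 to 21162 in DMSO. In DMSO against untreated cells 4 of the 5 were lower, and these sums did not overlap either. The part of these markers in the results below was not tested.

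Doxorubicin moved mitoribosome genes in both directions. Compared with untreated cells, 16 members were higher and 24 lower, and 35 did not pass the test. A gene was called when its adjusted p from limma, over all 13673 genes, was under 0.05. The called members were 53.3% of 75, beside 55.7% of all genes tested, so their share was near the background. In these bulk RNA samples, fewer cells of a kind and less RNA per cell cannot be told apart. Higher calls made up 30.1% of all genes and lower calls 25.6%. The median log2 change of members was -0.03, against 0.08 over all genes. The interquartile range was 0.63 log2 units for members, against 0.85 for all genes, and 4 of 75 (5.33%) were called with at least a 2-fold change, against 16.5% of all genes. The 3 arrays of each group did not overlap for 57.3% of members and 58.9% of all genes.

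**Figure D1:**
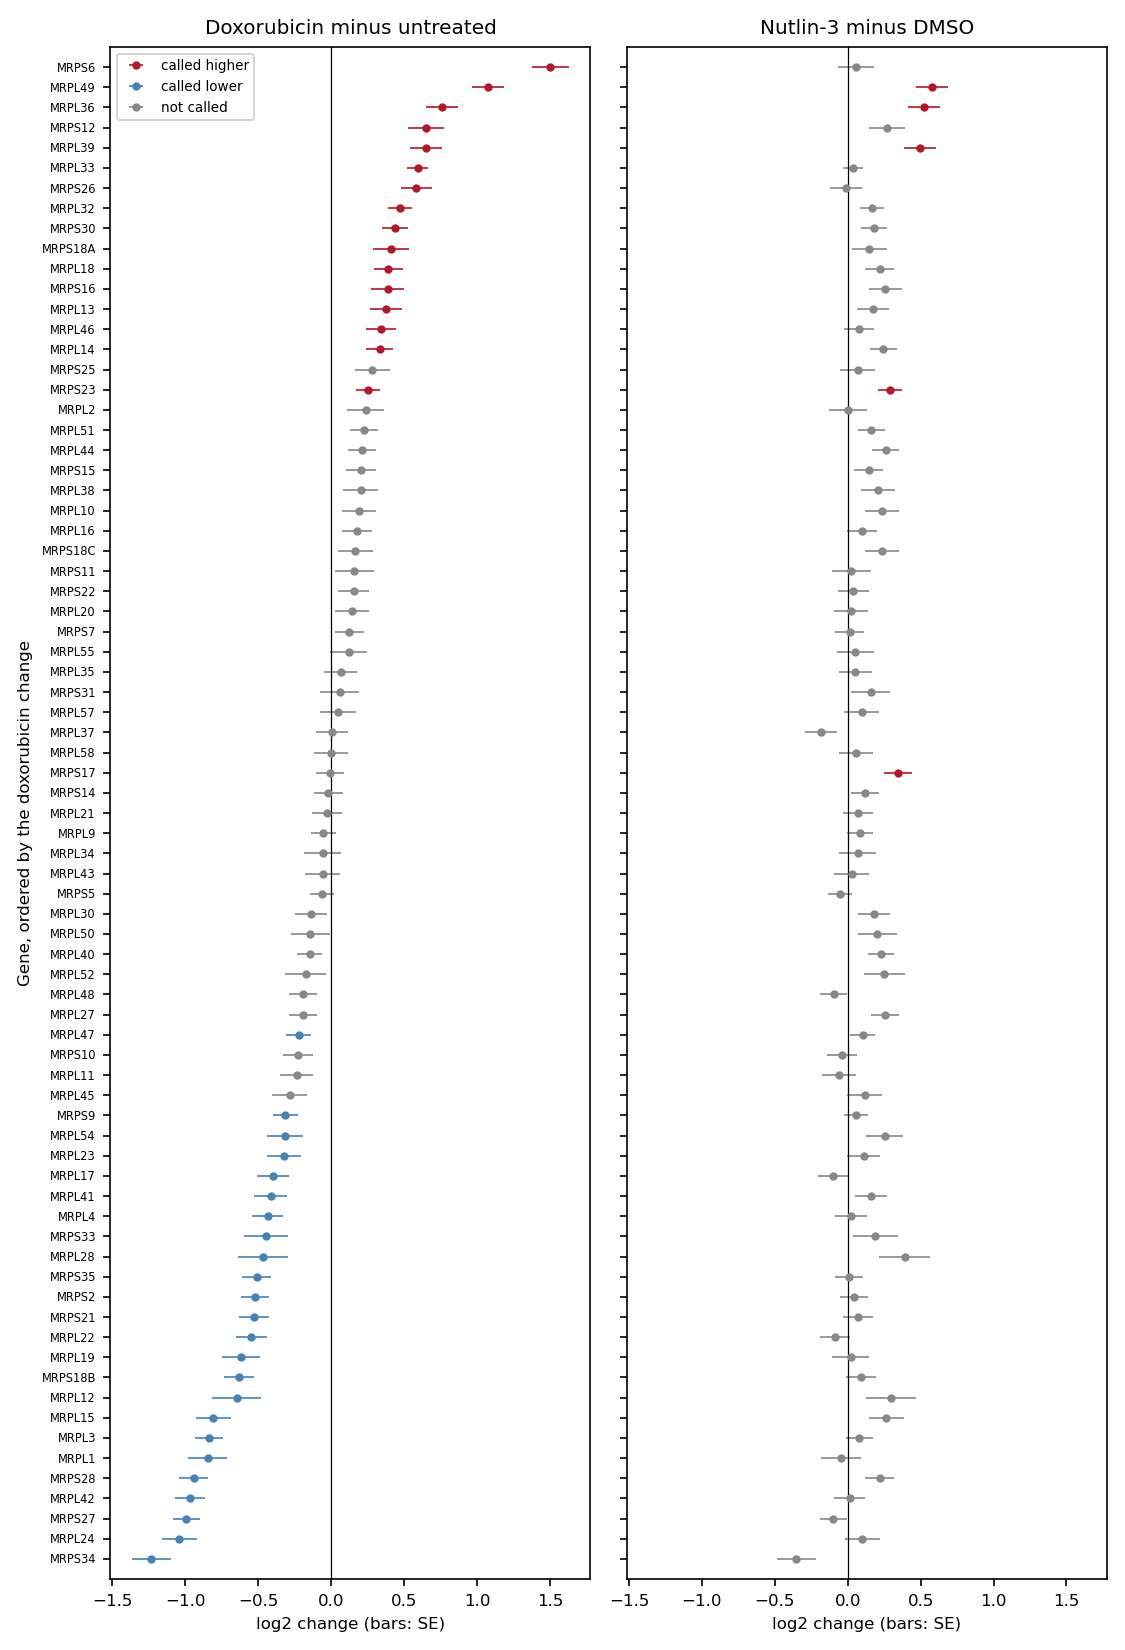
Log2 change ± SE of each of the 75 members with doxorubicin against untreated cells (left) and with nutlin-3 against DMSO (right), ordered by the doxorubicin change and with colour marking the calls. The doxorubicin changes run between -1.23 (MRPS34) and 1.50 (MRPS6), while those with nutlin-3 run between -0.35 (MRPS34) and 0.58 (MRPL49).

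MRPS6, a protein at the platform of the small subunit, rose most. Its signals were 3600.4, 3640.0 and 4379 with doxorubicin, against 1235, 1370.2 and 1453 in untreated cells. Every treated array lay above every untreated one, and the log2 change was 1.50 (SE 0.12, adjusted p = 2.69e-08). The transporter gene SLC5A3, which overlaps MRPS6 in RefSeq, rose by 0.79 log2 units (SE 0.11, adjusted p = 9.2e-06). Arrays of this kind cannot always tell overlapping genes apart.

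MRPL49, a mitochondria-specific protein of the large subunit, was the other member to rise at least 2-fold. It had signals of 4489.7, 5317 and 5103 with doxorubicin, against 2165, 2435 and 2449 in untreated cells. The groups were well apart, and the log2 change was 1.07 (SE 0.11, adjusted p = 3.14e-07).

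MRPL36 encodes one of the smallest proteins of the large subunit, kept from bacteria. Its signals were 7961, 8418 and 9639 with doxorubicin, against 4726, 5079 and 5522 in untreated cells. All 3 treated arrays were above the untreated ones, with a log2 change of 0.76 (SE 0.11, adjusted p = 1.87e-05). MRPL33 reached 12623, 12057 and 12309 with doxorubicin, against 8041, 8521 and 7924 in untreated cells. This change had the lowest SE of the 75 members, at a log2 change of 0.59 (SE 0.07, adjusted p = 2.06e-06).

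MRPL39, a mitochondria-specific protein of the large subunit, averaged 5949.5 ± 1102 with doxorubicin and 3761 ± 347 in untreated cells (SD over 3 arrays each), a log2 change of 0.65. Its treated arrays were uneven, at 5309, 5318 and 7222, but all exceeded the untreated ones. MRPS12, which sits by the decoding centre of the small subunit, had 4323, 4353 and 6058 with doxorubicin, against 3005, 3418 and 2859.6 in untreated cells. One treated array stood well above the other 2, and the log2 change was 0.65 (SE 0.13, adjusted p = 0.000305). MRPS26, a mitochondria-specific small-subunit protein, and MRPL32, a large-subunit protein matured by a mitochondrial protease, rose by 0.58 and 0.47 log2 units. The other 8 genes that rose were MRPS30, MRPS18A, MRPL18, MRPS16, MRPL13, MRPL46, MRPL14 and MRPS23, with log2 changes between 0.25 and 0.44.

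The count of rises depended on the scaling of the arrays. The median log2 change of all genes was 0.08 with the authors' scaling and -0.10 after centring each array on its median, and 7 members were then higher and 30 lower. Higher calls were 40% of the members' calls with the authors' scaling and 18.9% after centring, beside 54% and 38.4% of the calls over all genes. All genes called were 55.7% and 52.1% with these scalings. The difference between the members' median and that of all genes was -0.11 with both, since centring shifts all genes of an array alike and cannot change it. That difference was -0.05 after quantile normalization, -0.04 with a 60th percentile filter and -0.18 without a filter. MRPS6, MRPL49, MRPL36, MRPS12, MRPL39, MRPL33 and MRPS26 stayed higher after centring and after quantile normalization, as did all 24 lower members on the lower side. The other 9 higher members lost their call with 1 of these scalings or both.

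MRPS34, a mitochondria-specific small-subunit protein, fell most. Its signals were 531, 645 and 797 with doxorubicin, against 1453, 1839 and 1385 in untreated cells. The highest treated array was well under the lowest untreated one, and the log2 change was -1.23 (SE 0.13, adjusted p = 4.99e-07). EME2, an overlapping gene, moved the other way, with a log2 change of 0.44 (SE 0.12, adjusted p = 0.00515).

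MRPL24 lies near the exit of the tunnel through which the new protein leaves. It had signals of 861, 1085 and 856 with doxorubicin, against 2006, 1928 and 1851 in untreated cells. The groups did not overlap, and the log2 change was -1.04 (SE 0.12, adjusted p = 1.14e-06). HDGF, which overlaps MRPL24, fell too, by 0.99 log2 units.

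MRPS27 is a small-subunit protein of the pentatricopeptide repeat family, whose members bind RNA. Its signals were 1058, 1124 and 1287 with doxorubicin, against 2296, 2429.6 and 2213 in untreated cells. The SD was 118 on a mean of 1156 with doxorubicin and 109 on a mean of 2313 in untreated cells. Relative to their mean the treated arrays were thus more spread. The log2 change was -0.99 (SE 0.09, adjusted p = 1.11e-07). MRPL42, a mitochondria-specific large-subunit protein, had 1697, 1639 and 1835 with doxorubicin, against 3141, 3646 and 3379 in untreated cells, a log2 change of -0.97. MRPS28, a small-subunit protein, had 3197, 2513 and 3067 with doxorubicin, against 5538, 5884 and 5416 in untreated cells, a log2 change of -0.94. Neither gene's groups overlapped.

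Among core large-subunit proteins with bacterial counterparts, MRPL1, of the mobile L1 stalk, averaged 1647 ± 376 with doxorubicin and 2929.8 ± 145 in untreated cells (SD over 3 arrays each). Its log2 change was -0.85 (SE 0.14, adjusted p = 4.92e-05). MRPL3, near the peptidyl transferase centre, averaged 5464 ± 733 with doxorubicin and 9721 ± 550.0 in untreated cells, a log2 change of -0.84. MRPL15 averaged 2325 ± 425 with doxorubicin and 4053 ± 258 in untreated cells, a log2 change of -0.81. In all 3 the treated arrays lay below every untreated array.

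**Figure D2:**
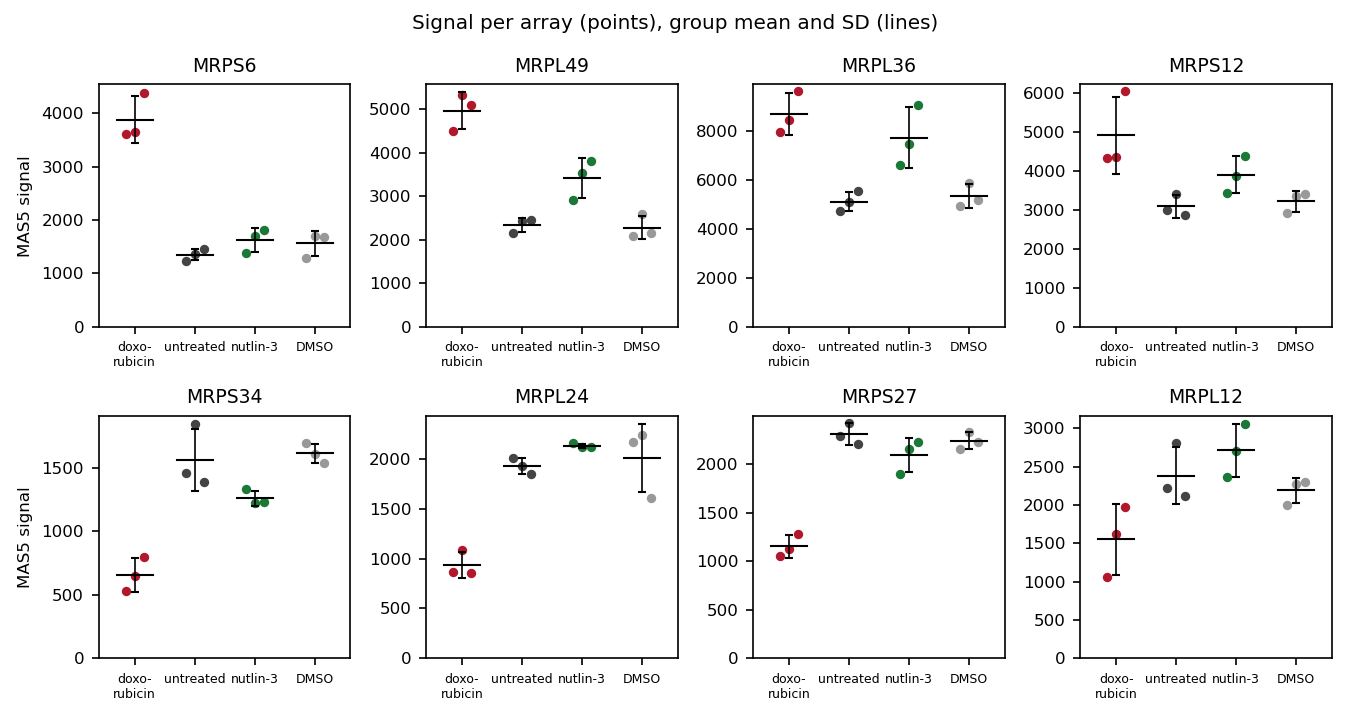
MAS5 signal of 8 members on each array, with doxorubicin left of untreated cells and nutlin-3 left of DMSO, and bars for the mean and SD of 3 arrays. MRPS6, MRPL49, MRPL36 and MRPS12 are higher with doxorubicin, and MRPS34, MRPL24, MRPS27 and MRPL12 are lower. With nutlin-3 only MRPL49 and MRPL36 of these 8 passed the test.

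The remaining 16 lower members had log2 changes between -0.65 (MRPL12) and -0.22 (MRPL47). MRPL12, the stalk protein that recruits translation factors and that also binds the mitochondrial RNA polymerase, had signals of 1059, 1627 and 1968 with doxorubicin, against 2223, 2809 and 2120.3 in untreated cells. Its treated arrays varied widely, and the change had an SE of 0.17 (adjusted p = 0.00377). Of the 24 lower members, 21 had groups that did not overlap, as had all 16 higher members and 6 of the 35 not called. Calls and overlap come from the same arrays, so called genes of any kind tend not to overlap. The same split over all genes is not given here. The members not called had log2 changes between -0.28 and 0.28.

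Both subunits and both evolutionary classes held genes of either direction. Over all genes tested, 30.1% were higher and 25.6% lower with doxorubicin. Of 30 large-subunit proteins with a bacterial counterpart, 6 were higher and 12 lower, with a median log2 change of -0.10. Of 20 mitochondria-specific large-subunit proteins, 5 were higher and 3 lower, with a median of 0.00. The small subunit had 3 higher and 4 lower among 15 proteins with a bacterial counterpart (median -0.01) and 2 higher and 5 lower among 10 mitochondria-specific ones (median -0.19). After median centring higher and lower members numbered 2 and 14, 2 and 6, 2 and 5, and 1 and 5 in these classes, and all 4 medians were below 0, between -0.37 and -0.18. MRPS18A and MRPS18B were counted here as mitochondria-specific although they are related to bacterial S18, so the split by origin is approximate. Of all genes, 52.1% were called after centring, and 38.4% of those calls were higher. No difference between these classes was tested.

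**Figure D3:**
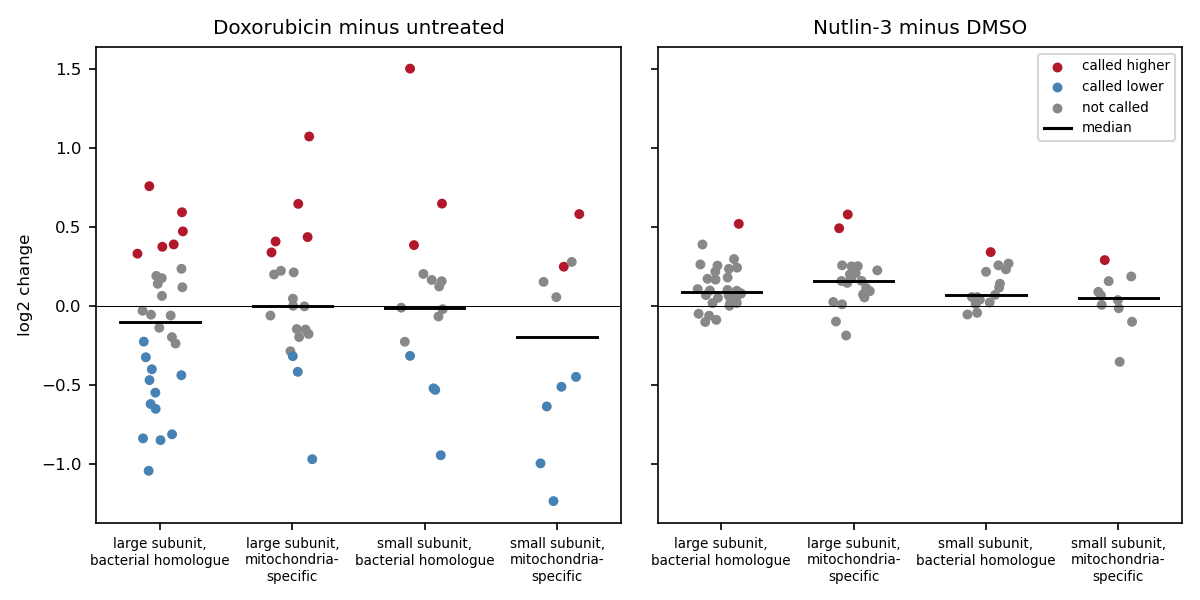
Log2 change of the members in 4 classes by subunit and origin, with doxorubicin against untreated cells and with nutlin-3 against DMSO, where each point is a gene and each line a class median. The doxorubicin medians lie between -0.19 and 0.00, and points of each class lie on both sides of 0.

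By place in the ribosome, the stalk and its base (4 genes) had 2 lower members, MRPL12 and MRPL54. The side of the large subunit with the exit of the new protein, which faces the inner membrane, had 4 lower members of 7, MRPL24, MRPL22, MRPL23 and MRPL47, and 1 higher, MRPL39. The central protuberance, at the top of the large subunit, had 2 higher members of 7, MRPL18 and MRPL46, and 0 lower, also 0 at an unadjusted p under 0.05 in limma. After median centring the central protuberance had 0 higher and 3 lower members. These counts are small, beside 30.1% higher and 25.6% lower over all genes with the authors' scaling. No difference by place was tested.

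Of the 3 proteins related to bacterial S18, 1 rose, 1 fell and 1 was not called with doxorubicin. MRPS18A, which is part of the large subunit, averaged 1826 ± 253 with doxorubicin and 1372 ± 212 in untreated cells (SD over 3 arrays each), a log2 change of 0.41 (adjusted p = 0.00844). MRPS18B averaged 1951 ± 81 with doxorubicin and 3053 ± 406 in untreated cells, a log2 change of -0.63 (adjusted p = 5.6e-05). MRPS18C did not pass the test, at a log2 change of 0.17 (SE 0.12, adjusted p = 0.241), and its sign turned after median centring (-0.01).

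Nutlin-3 moved few mitoribosome genes. Against DMSO, 5 members were higher, 0 lower and 70 not called, or 6.67% of members, beside 26.4% of all genes tested. At an unadjusted p under 0.05 limma gave 15 members higher and 1 lower, beside 36.5% of all genes in either direction. All genes were called higher in 12.5% and lower in 13.9%. The members' median log2 change was 0.10, against 0.01 over all genes, and 64 of 75 members had a positive value. Their interquartile range was 0.19 log2 units, against 0.45 for all genes. Groups did not overlap for 18.7% of members and 43.1% of all genes.

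MRPL49, the member with the second largest rise with doxorubicin, rose most with nutlin-3. Its signals were 2916, 3530.2 and 3808 with nutlin-3, against 2080.0, 2582 and 2166 in DMSO. All 3 treated arrays exceeded the DMSO arrays, with a log2 change of 0.58 (SE 0.11, adjusted p = 0.000693). MRPL36 had 6598, 7478 and 9052 with nutlin-3, against 4943, 5887 and 5179 in DMSO, a log2 change of 0.52 (adjusted p = 0.00193). Its groups did not overlap, though the treated arrays were spread. NDUFS6, which overlaps MRPL36 in RefSeq, also rose with nutlin-3, by 0.33 log2 units (adjusted p = 0.0126). With doxorubicin NDUFS6 was at 0.18 and not called (adjusted p = 0.105).

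MRPL39 had 4799, 5135 and 5136 with nutlin-3, against 3319, 3639.9 and 3739 in DMSO, a log2 change of 0.49 (adjusted p = 0.00252). MRPS17, an RNA-binding small-subunit protein kept from bacteria, had 4149.5, 5122 and 5104 with nutlin-3, against 3420.1, 4073 and 3808 in DMSO, a log2 change of 0.34 (adjusted p = 0.0129). MRPS23, a mitochondria-specific small-subunit protein, rose by 0.29 log2 units (adjusted p = 0.013). In each of these genes the nutlin-3 arrays lay above all DMSO arrays. After quantile normalization and after median centring MRPL49, MRPL36 and MRPL39 kept their call, and MRPS17 and MRPS23 each lost theirs in at least 1 of them. The count of 5 was 12 without nutlin-3 replicate 1, and 3 without nutlin-3 replicate 3 or without DMSO replicate 1.

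MRPS34, the gene that fell most with doxorubicin, had the lowest nutlin-3 value, -0.35 log2 units, and missed the threshold (SE 0.13, adjusted p = 0.0581). MRPS6, the gene that rose most with doxorubicin, had 1377, 1691 and 1804 with nutlin-3, against 1295, 1709 and 1682 in DMSO. The groups overlapped, and the log2 difference of 0.06 did not pass the test (adjusted p = 0.79). The overlapping SLC5A3 was at -0.13 (adjusted p = 0.426).

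The agents were set against each other through the difference of their responses, which share no array. The doxorubicin response was the higher for 5 members and the lower for 26, 41.3% of members, beside 39.5% of all genes (21.8% higher, 17.7% lower). The median difference of members was -0.10, against 0.07 over all genes. Of the 24 members that fell with doxorubicin, 23 had a lower response than with nutlin-3, and MRPL17 was the one that did not pass. Of the 16 that rose with doxorubicin, 5 had a higher response than with nutlin-3: MRPS6, MRPS26, MRPL33, MRPL49 and MRPL32. After median centring, 1 of these 5, MRPS6, kept its call. Mean MRPS26 signals were 1708 with doxorubicin, 1638 with nutlin-3, 1661 in DMSO and 1134 in untreated cells. Its 2 controls thus lay further apart than its 2 treated groups. The difference contains the doxorubicin change by which the 24 and the 16 were picked, so both counts lean towards passing. The same shares over all genes that fell or rose with doxorubicin are not given here.

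**Figure D4:**
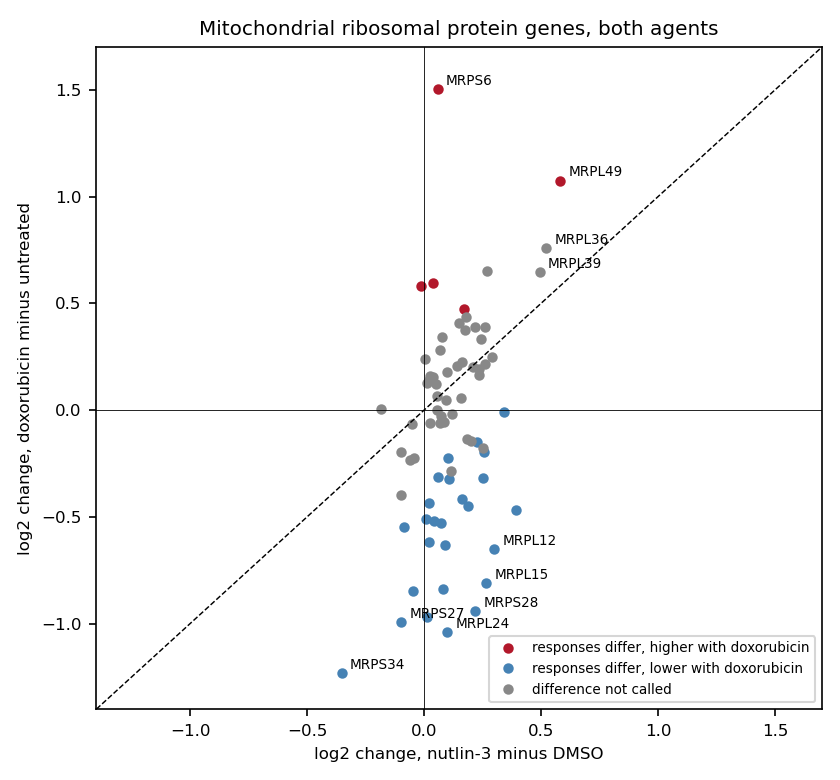
Log2 change with doxorubicin against untreated cells (vertical axis) and with nutlin-3 against DMSO (horizontal axis) for the 75 members, coloured by the call for the difference between the responses, with a dashed line where both are equal. Most members lie in a narrow upright band, with nutlin-3 values between -0.35 and 0.58 over a doxorubicin range of -1.23 to 1.50.

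The largest differences were in MRPS6, at 1.45 log2 units (SE 0.18, adjusted p = 7.72e-06), and in MRPS28, at -1.16 (SE 0.14, adjusted p = 6.02e-06). MRPS28 had 6588, 7931 and 8056 with nutlin-3, against 6520.5, 6177 and 6635 in DMSO, so its value was positive with nutlin-3 and negative with doxorubicin. That nutlin-3 change of 0.22 did not pass the test. MRPL24, MRPL15, MRPL42, MRPL12, MRPL3, MRPS27 and MRPS34 followed, with differences between -1.14 and -0.88. MRPL27, MRPL40 and MRPS17 had a lower response to doxorubicin than to nutlin-3 without being called for doxorubicin itself.

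MRPL49, MRPL36, MRPL39 and MRPS23 were higher with both agents, 12 were called higher with doxorubicin and not called with nutlin-3, 24 were called lower with doxorubicin and not called with nutlin-3, and MRPS17 was called higher with nutlin-3 and not called with doxorubicin. Of those 12, the test of the difference passed for 4 (MRPS6, MRPS26, MRPL33 and MRPL32) and not for the other 8, and it passed for MRPS17. The other 34 were called with neither. Across the 75 members the 2 changes had a Pearson correlation of 0.40 and a Spearman correlation of 0.31, beside 0.44 and 0.34 over all 13673 genes. These are given as descriptions, since genes of 1 array share its scaling.

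DMSO itself was set against untreated cells, as these controls differ in solvent. The 3′ to 5′ ratios and the epithelial marker sums given above also differed between them. Of the members, 5 were higher and 1 lower (8%), beside 14.1% of all genes (8.14% higher, 5.98% lower). MRPL20, a large-subunit protein kept from bacteria, had 5184, 5770.3 and 5187 in DMSO, against 3125, 3909 and 3749 in untreated cells, a log2 change of 0.58 (adjusted p = 0.00358). MRPS26 had 1423, 1756 and 1803 in DMSO, against 1032, 1241 and 1130.0 in untreated cells, a log2 change of 0.54 (adjusted p = 0.00307). DMSO arrays lay above all untreated arrays in both genes.

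MRPL10, the base of the stalk, MRPL43 and MRPS5 were higher by 0.46, 0.38 and 0.32 log2 units, and MRPL48 was lower, at -0.35. A second probe set of MRPS5 gave -1.20, so its direction in DMSO rests on the probe set. The count of 5 was 2 without untreated replicate 1 or DMSO replicate 3, and 3 without DMSO replicate 2. The lower call of MRPL48 was lost without untreated replicate 2, DMSO replicate 1 or DMSO replicate 3. MRPS26 was thus higher with DMSO as well as with doxorubicin, each against the same untreated arrays, and stood at -0.01 with nutlin-3 against DMSO.

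Other probe sets of the called members were compared with the ones used. For 30 members several probe sets passed the filter, and with doxorubicin 0 of them had probe sets called in opposite directions. Of 20 further probe sets of members called with doxorubicin, 16 had the same sign as the one used and 9 were called the same way. Some members reported as not called had another probe set that was called. With doxorubicin such probe sets were lower for MRPS10 (-0.63 and -0.60) and MRPL43 (-0.73 and -0.36), among others, and higher for MRPL2 (0.52) and MRPS11 (0.62). A missing call therefore rests on the probe set used. With nutlin-3, 1 of 2 further probe sets of called members had the same sign and 0 were called the same way. Among members not called with nutlin-3, MRPL35 and MRPS11 each had another probe set called lower (-0.76 and -0.58). In DMSO against untreated cells, 2 of 5 had the same sign, 1 was called the same way, and MRPS5 had probe sets called in both directions.

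Position in the genome gave mixed neighbours. Of the members, 21 had another gene starting on the opposite strand within 1000 bases. A tested neighbour was present in 17 such pairs, where the pair of MRPL46 and MRPS11 was counted from each side. In 8 of these pairs the member was called with doxorubicin: the neighbour went the same way in 4, the other way in 2 and was not called in 2. MRPL49 and its neighbour FAU, a cytosolic ribosomal protein gene 49 bases away, both rose, FAU by 0.44 log2 units (adjusted p = 0.000502). MRPS12 and SARS2, the mitochondrial seryl-tRNA synthetase, start 181 bases apart and went opposite ways. SARS2 averaged 232 ± 41.6 with doxorubicin and 539.8 ± 46.9 in untreated cells (SD over 3 arrays each), a log2 change of -1.17 (adjusted p = 1.21e-06), while MRPS12, whose promoter is printed above, rose by 0.65.

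Motif matches were counted by call. The YY1 core stood in 8 of 15 windows of members higher with doxorubicin (53.3%), in 5 of 21 of those lower (23.8%) and in 9 of 31 not called (29%). The ETS core stood in 6 of 15 (40%), 7 of 21 (33.3%) and 15 of 31 (48.4%). These counts are small and were not tested. By gene length, the 10 longest members (at least 45.464 kb) had 7 lower and 2 higher with a median log2 change of -0.42, and the other 65 had 17 lower and 14 higher with a median of 0.00. The Spearman correlation of doxorubicin change with gene length was -0.19 over the members and -0.18 over all genes, so the trend was not particular to the members. The shares called among all genes of such lengths are not given here.

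Other genes of mitochondrial translation also went both ways. The list counts below stand beside 30.1% higher and 25.6% lower over all genes with doxorubicin. With nutlin-3 these all-gene shares were 12.5% and 13.9%. Of 6 mitoribosome proteins known also or only under other names, among them the members MRPL57 and MRPL58, 2 fell with doxorubicin. DAP3, a GTP-binding protein of the small subunit, averaged 1613 ± 149.8 with doxorubicin and 3595 ± 277 in untreated cells (SD over 3 arrays each), a log2 change of -1.15 (adjusted p = 6.74e-09). PTCD3, a pentatricopeptide repeat protein, was at -0.36. With nutlin-3, 0 of the 6 were called by limma, and 1 was higher at an unadjusted p under 0.05. KGD4, once named MRPS36 and now known as a subunit of the alpha-ketoglutarate dehydrogenase complex, was at -0.03 with doxorubicin and not called.

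Of 15 mitochondrial translation factors, 2 rose and 3 fell with doxorubicin. TACO1, a translational activator of a cytochrome oxidase subunit, changed by 0.70 and the release factor gene MTRF1L by 0.46, while MTRFR, of the same family, changed by -0.67 and the recycling factor MRRF by -0.60 log2 units. Of 23 assembly and rRNA modification genes, 6 rose and 5 fell. The RNA helicase DDX28 and the rRNA methyltransferase MRM1 changed by 1.00 and 0.76, against -0.79 for the assembly factor RBFA and -0.52 for the methyltransferase NSUN4. With nutlin-3, MTRF1L (0.21) and TFB1M (0.30) rose and MTRFR (-0.35) and MTERF3 (-0.28) fell in these lists. After median centring 0 genes of either list were called with nutlin-3 by limma, and at an unadjusted p under 0.05 the translation factors had 1 higher and 1 lower and the assembly genes 2 and 1.

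The 18 genes of mitochondrial aminoacyl-tRNA synthesis had 9 lower and 3 higher with doxorubicin, at a median log2 change of -0.26, and 0 called with nutlin-3 by limma, where 2 were higher and 2 lower at an unadjusted p under 0.05. NARS2, which charges the asparagine tRNA, averaged 917 ± 93.2 with doxorubicin and 2349 ± 78 in untreated cells, a log2 change of -1.35. PARS2 and MARS2, the prolyl and methionyl enzymes, rose by 0.66 and 0.50. Of 10 genes of mitochondrial DNA and its transcription, 4 rose, with the mitochondrial DNA polymerase POLG at 0.63 and the nuclease MGME1 at 0.48, and 2 fell, the RNA polymerase POLRMT at -0.67 and the single-stranded DNA-binding protein SSBP1 at -0.32. With nutlin-3, the mitochondrial transcription factor TFB2M rose (0.46) and POLG fell (-0.35).

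Of 8 transcription factors known for nuclear genes of mitochondria, 5 fell and 1 rose with doxorubicin. NRF1 averaged 179 ± 22.8 with doxorubicin and 461 ± 11 in untreated cells, a log2 change of -1.30, and GABPB1, a subunit of an ETS-family factor, averaged 407 ± 3.12 and 1013 ± 69.4 in these groups, a change of -1.28. ESRRA, a nuclear receptor, rose by 1.09 log2 units. YY1 was at 0.18 and not called (adjusted p = 0.122). With nutlin-3, NRF1 (-0.49) and GABPB1 (-0.42) fell and MYC rose (0.36). The call of MYC was lost after quantile normalization and after median centring.

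Of 53 cytosolic ribosomal protein genes, 6 were higher and 5 lower with doxorubicin (20.8% called), at a median log2 change of 0.02. With nutlin-3, 13 of the 53 were higher and 0 lower, at a median of 0.18, and at an unadjusted p under 0.05 limma gave 24 and 0. A list of 74 oxidative phosphorylation genes encoded in the nucleus was picked by symbol. Its genes are called subunits here, though it also holds ATP5IF1, the inhibitor of ATP synthase. Of the 74, 32 rose and 17 fell with doxorubicin (66.2% called). ATP5IF1 was at 1.13 and ATP5MC2, a subunit of the ATP synthase membrane ring, at -1.30. With nutlin-3, 19 of the 74 were higher and 0 lower, or 27 and 0 at an unadjusted p under 0.05 in limma. Median centring turned the balance of some of these lists. With doxorubicin, oxidative phosphorylation subunits then had 10 higher and 20 lower (median 0.00), cytosolic ribosomal protein genes 0 and 15 (median -0.16), aminoacyl-tRNA genes 0 and 12, assembly and modification genes 3 and 7, and genes of mitochondrial DNA and transcription 1 and 3. With nutlin-3, 3 oxidative phosphorylation subunits and 1 cytosolic ribosomal protein gene were then higher. After quantile normalization these nutlin-3 counts were 19 and 12, and the doxorubicin counts of oxidative phosphorylation subunits 35 higher and 17 lower.

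The counts for the mitoribosome genes with nutlin-3, 5 higher and 0 lower of 75, are read beside these without a test of the difference.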

How the data were processed

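Total RNA of 12 U2OS samples, 3 in each of 4 groups, was measured on Affymetrix U133 Plus 2.0 arrays. The deposited series table holds linear signal intensity values that the authors made with MAS5. That tool is named in the submitters' processing notes; its settings are not given in the sources used here. Groups and replicate numbers came from the sample titles. Values were turned into log2(signal + 16), and fold changes on this scale come out too small for dim genes. Probe sets under the 40th percentile of mean log2 signal (a signal of 49.3) were left out, and each gene kept its brightest probe set (by mean log2 signal) of those with 1 symbol. Of 54675 probe sets, 62 were controls, 41091 had 1 symbol, 1801 several and 11721 none listed. RefSeq held a current symbol for 13657 of the 13673 genes. limma 3.58.1 in R 4.3.3 (lmFit, eBayes with trend) fitted all 12 arrays with 4 group means. Benjamini-Hochberg adjustment ran over the 13673 genes. Members and gene lists were chosen with earlier results of these data known. The rule named up to 8 rises and 8 falls per comparison among called members whose arrays did not overlap, members chosen for their role, and up to 2 called genes each way per list and agent. Genes not named by it, such as overlapping genes and neighbours, were chosen after their values were seen. In simulated doxorubicin data 100 of the 13673 genes were changed by 0.5 log2 units and 100 by 1 log2 unit. The fit recovered 35% and 78% of these, with 7 false calls among the unchanged genes. In the data 55.7% of genes were called with doxorubicin. The adjusted threshold depends on that share, so these rates do not carry over to the results. Exact permutation tests used scipy 1.17.1 in Python 3.11.15. Alternatives covered scaling, pseudocounts of 1 and 64, filters, probe set choice, trend, weights, fits of 6 arrays, a replicate block, left-out arrays and an adjusted p under 0.01. Precision is limited by the 3 arrays of each group.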

Additional observations from a re-analysis of the deposited data

Results flagged for a closer look

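The doxorubicin and nutlin-3 responses of 17 named members differed by limma's test of the difference itself (adjusted p under 0.05 over all genes). Many of the 17 were named because they were called in this same difference, so that count leans towards passing. Of all 75 members, 31 passed this test (41.3%), beside 39.5% of all genes, so the share was near the background. The doxorubicin response was the higher, in log2 units, in MRPS6 by 1.45, MRPS26 by 0.60, MRPL33 by 0.56, MRPL49 by 0.49 and MRPL32 by 0.31. For MRPS26 the treated groups had similar means, 1708 with doxorubicin and 1638 with nutlin-3. Its controls differed, at 1134 in untreated cells and 1661 in DMSO, a log2 change of 0.54. The doxorubicin response was the lower in MRPS28, at -1.16, MRPL24, at -1.14, MRPL15, at -1.07, and MRPL42, at -0.98. MRPL12 stood at -0.95, MRPL3 at -0.92, MRPS27 at -0.90, MRPS34 at -0.88 and MRPL1 at -0.80. Smaller differences were those of MRPS18B, at -0.73, MRPL41, at -0.57, and MRPS17, at -0.35. The largest adjusted p among these was 0.0481, for MRPL32, whose call was lost in 14 of the alternatives. MRPS26, MRPL33, MRPL49, MRPL42, MRPL41 and MRPS17 also lost their call in at least 1 alternative. Another probe set of MRPL41, with a mean signal of 1154, gave a difference of -0.26 and was not called (limma adjusted p = 0.327). MRPS6 was higher in the doxorubicin response under each alternative that was run, with differences between 1.29 and 1.57.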

How the results depend on the processing

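Of the 16 higher and 24 lower members with doxorubicin, 7 and 19 kept their call under every alternative run at an adjusted p under 0.05. For nutlin-3 this held for 2 of 5 (MRPL36 and MRPL49), for the difference between the agents for 1 of 5 higher and 13 of 26 lower, and for DMSO for 2 of 5 higher (MRPL20 and MRPS26). Median centring gave 7 higher members and a median log2 change of -0.21 with doxorubicin, 3 higher with nutlin-3, 1 higher and a median of -0.25 for the difference, and 0 lower with DMSO. MRPS18C turned sign with doxorubicin after centring (-0.012) and with the mean of all probe sets (-0.042), without a call. With nutlin-3, array weights gave 13 higher and 1 lower member, a fit of 6 arrays 8 and 1, and a 60th percentile filter 1 lower. The mean of all probe sets gave 1 lower with nutlin-3, 8 higher for the difference and 2 lower with DMSO, and put MRPS5 at -0.32 with DMSO. Without _x_at and _s_at probe sets, 1 member was lower with nutlin-3, 3 were higher and 2 lower with DMSO, and MRPS5 stood at -1.20. An adjusted p under 0.01 gave 3 higher with nutlin-3, 3 higher and 15 lower for the difference, and 2 higher and 0 lower with DMSO. With 1 array left out, higher members numbered 14 to 19 with doxorubicin, 3 to 12 with nutlin-3, 3 to 5 for the difference (3 without DMSO replicate 2) and 2 to 5 with DMSO, and lower members 19 to 28, 0 to 1, 18 to 29 and 0 to 1. Medians over these settings were -0.09 to 0.01 with doxorubicin, 0.05 to 0.17 with nutlin-3, -0.18 to -0.04 for the difference and -0.01 to 0.08 with DMSO. Doxorubicin replicate 1 had the lowest ACTB ratio of its group, 2.48, and with it as the only doxorubicin array, an alternative chosen after seeing the data, 11 members were higher and 24 lower, and 3 and 22 for the difference. The lone array is then assumed to vary like the other groups. The replicate block gave 19 higher and 26 lower members with doxorubicin, 13 and 0 with nutlin-3, 5 and 27 for the difference, and 7 and 3 with DMSO. Deviations of same-numbered arrays correlated at -0.02, -0.02 and -0.09 for doxorubicin and untreated, 0.17, -0.01 and 0.09 for nutlin-3 and DMSO, and 0.10, 0.01 and 0.02 for DMSO and untreated. Of 6 arrays in each comparison, 0, 3 and 2 correlated best with their own number. As not every pair exceeded 0.1, the samples were taken to share only a number, although the members' median was lowest on replicate 1 in all 4 groups. The cause of these changes was not tested.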

Other observations

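The symbols that were measured only by shared probe sets could not be counted as members. The probe set shared by MRPL53 and CCDC142 changed by 0.68 log2 units with doxorubicin against untreated cells (limma adjusted p = 8.18e-05) and by 0.41 with nutlin-3 against DMSO (adjusted p = 0.0153). The probe set shared by MRPS24 and the read-through gene URGCP-MRPS24 changed by -0.20 with doxorubicin (adjusted p = 0.0456) and by 0.08 with nutlin-3 (adjusted p = 0.535). The median of the members' deviations from their means over 12 arrays was -0.20, -0.17 and 0.02 on the doxorubicin arrays, -0.14, 0.04 and -0.06 on the untreated ones, 0.01, 0.15 and 0.23 on the nutlin-3 ones and -0.10, 0.09 and 0.05 on the DMSO ones.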
